A study of Mus musculus with 5 samples.

Results

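Nr1d2 and Arntl are genes of the circadian clock, and their messenger RNA was compared here between adult mouse retina and newborn mouse cortex. The members were the probes of the deposited table whose single gene symbol was Nr1d2 or Arntl, a gene now also named Bmal1. Each gene had 1 such probe, which makes 2 genes of the 8798 measured. Both genes were chosen by their high ratio of retina over cortex on these same arrays, so their ratios are given as a description, with no test. The retina pool was total RNA of adult C57/B6 mice, labelled with Cy5, and the cortex pool was total RNA of Swiss-Webster mice of postnatal day 1, labelled with Cy3. Both pools were hybridised together to each of 5 two-colour Agilent arrays, which the labels call technical replicates. Tissue, age, strain and dye change together and cannot be told apart. How many animals made up a pool, and at what time of day tissue was taken, is not given.

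The clock is a feedback loop of transcription that runs in most cells. The protein of Arntl pairs with CLOCK or NPAS2 and switches on genes with E-box sites, among them the Per and Cry genes, whose proteins then block the pair. The same pair switches on Nr1d1 and Nr1d2, whose products REV-ERBα and REV-ERBβ are nuclear receptors that bind ROR elements and repress Arntl. The ROR receptors bind the same elements and activate it. The mouse retina holds a clock of its own, which runs in cultured retina and times several retinal functions.

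The promoters of both members are shown because ROR elements are the sites through which REV-ERB and ROR receptors act on Arntl. They come from RefSeq on build GRCm38.p6 and span 250 bases before to 50 bases after a transcript start, each written 5′ to 3′ on the gene's strand. Capitals mark AGGTCA, the core of the ROR element, in Nr1d2 (chr14:18239057-18239356, minus strand), and the longer TAGGTTA and TAGGTCA in Arntl (chr7:113207261-113207560, plus strand).
Nr1d2: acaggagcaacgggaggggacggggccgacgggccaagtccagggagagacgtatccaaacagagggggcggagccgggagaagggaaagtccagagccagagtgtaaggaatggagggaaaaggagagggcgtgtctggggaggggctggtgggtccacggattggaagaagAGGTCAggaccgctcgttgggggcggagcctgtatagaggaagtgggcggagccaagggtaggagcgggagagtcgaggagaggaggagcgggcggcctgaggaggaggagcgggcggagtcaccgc
Arntl: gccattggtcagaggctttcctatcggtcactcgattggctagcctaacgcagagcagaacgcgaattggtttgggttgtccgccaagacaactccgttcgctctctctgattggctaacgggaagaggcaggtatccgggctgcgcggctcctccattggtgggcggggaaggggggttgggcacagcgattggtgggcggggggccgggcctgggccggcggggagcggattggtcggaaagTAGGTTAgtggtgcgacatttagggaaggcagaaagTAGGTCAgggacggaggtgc

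In the Nr1d2 window AGGTCA began 77 bases before the start, on the strand of the gene. In the Arntl window TAGGTCA began at base 31 after the start and contains AGGTCA, and TAGGTTA, which was added to the search after the sequence was seen, began 6 bases before it. A second Arntl start in the table lies close by, and its window overlaps the one shown and holds TAGGTTA but not TAGGTCA. Searched on both strands, AGGTCA occurred in 16.3% of 32851 promoters of the same length, TAGGTCA in 2.61% and TAGGTTA in 1.44%. Neither member's windows held the E-box CACGTG (7.15% of promoters), the D-box forms TTATGTAA (0.938%) and TTATGCAA (0.743%) or the cAMP response element TGACGTCA (1.79%).

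Of the 10 other measured core clock genes with a promoter in the table, 3 held CACGTG, namely Cry1, Ciart and Tef, 2 held TTATGTAA, namely Per3 and Timeless, and 1 held AGGTCA, namely Clock. A gene counts here if any of its windows holds the motif, as 8.09% of 27025 genes did for CACGTG, 1.11% for TTATGTAA and 18.1% for AGGTCA. The motif TAGGTCA was found in 0 of these 10, as were the motif TAGGTTA, the D-box form TTATGCAA and the motif TGACGTCA. A match is a run of letters and not a shown binding site.

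Each ratio below is log2 of retina over cortex, as mean ± SD over n = 5 arrays, so a value of 1 is 2-fold. The deposited values were read as log10 ratios, because the largest is exactly 2, a limit that Agilent's log10 ratios have. Only 4 values on array 1 and 1 on array 5 were at 2 or -2. The log base is thus likely rather than known. Direction is not stated either, and were it opposite, every sign would turn, those of the marker genes below included. The SD covers labelling and hybridisation of the same pools, and the spread between animals was not measured. In pooled tissue, more cells that use a gene and more of its RNA per cell cannot be told apart. Of the marker genes, 3 of 12 for rods and cones were measured, with ratios from 2.97 to 4.30, and 6 of 8 for cortical and immature neurons, from -3.99 to -1.47, the directions that the tissue labels imply under this reading. How far each spot stood above its background is unknown.

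Nr1d2 had a ratio of 2.00 ± 0.04, or 4.00-fold. Its deposited log10 ratios on arrays 1 to 5 were 0.583, 0.614, 0.609, 0.598 and 0.607, which are log2 ratios of 1.94, 2.04, 2.02, 1.99 and 2.02. The lowest value was on array 1 and the highest on array 2, and no array stood apart. Of the 8798 genes, 0.841% had a higher mean ratio, which put Nr1d2 at rank 74 from the top. Its SD was below the median SD of 0.085 over all genes, with 11.6% of genes repeating more closely.

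Arntl had a ratio of 1.38 ± 0.15, or 2.60-fold. Its deposited log10 ratios on arrays 1 to 5 were 0.373, 0.409, 0.413, 0.388 and 0.489, or log2 ratios of 1.24, 1.36, 1.37, 1.29 and 1.62. Array 5 was the highest, and the other 4 arrays lay between 1.24 and 1.37. In mean ratio Arntl was at rank 189, with 2.15% of genes higher, while 78.1% of genes had a lower SD. On array 5 the probe lay 0.25 above its own mean, and the 20 probes nearest to it in probe number had a median deviation of 0.03 there. Without array 5 its mean was 1.32.

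**Figure D1:**
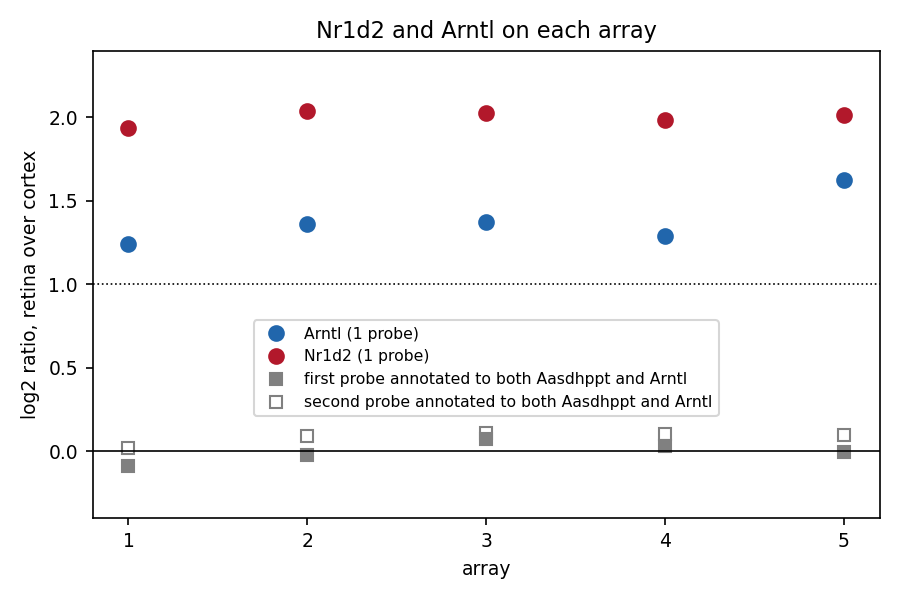
Log2 ratio of retina over cortex (vertical axis) on each of the 5 arrays (horizontal axis) for the Nr1d2 probe (red), the Arntl probe (blue) and 2 probes annotated to both Aasdhppt and Arntl (grey squares); the dotted line is 2-fold. The Nr1d2 points lie between 1.94 and 2.04 and the Arntl points between 1.24 and 1.62, while both grey probes lie near 0.

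The Nr1d2 probe read above the Arntl probe on all 5 arrays. The difference of their log2 ratios was 0.70, 0.68, 0.65, 0.70 and 0.39 on arrays 1 to 5, with a mean of 0.62 ± 0.13, and the smallest difference was that of array 5. The ranges of both probes over the arrays did not overlap. Since both genes were picked with these ratios known, no test of the difference is given.

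The array also carried 2 probes that the annotation gives to both Aasdhppt, an enzyme gene, and Arntl, and these were assigned to neither gene. The first read -0.002 ± 0.061, from -0.09 on array 1 to 0.07 on array 3. The second read 0.08 ± 0.04, from 0.02 on array 1 to 0.11 on array 3. Both lay more than 1 log2 unit below the single Arntl probe on every array. The Arntl ratio therefore rests on 1 probe, as does that of Nr1d2.

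**Figure D2:**
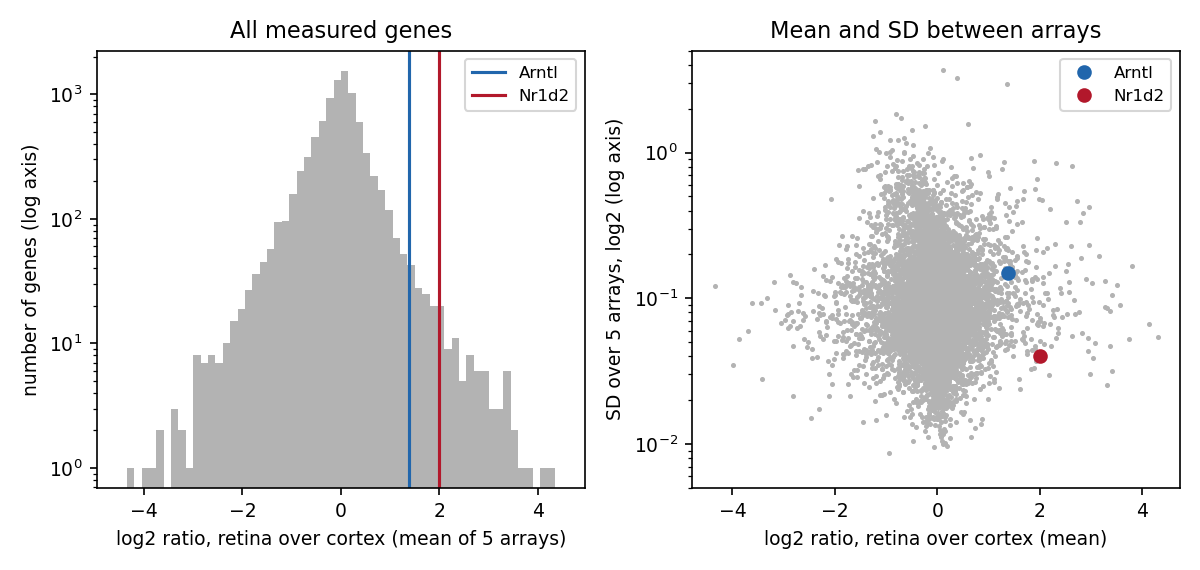
Left, number of genes (log axis) by mean log2 ratio of retina over cortex over 5 arrays, with Arntl (blue) and Nr1d2 (red) as lines. Right, SD over the 5 arrays (log axis) against the mean for each of the 8798 genes (grey), where Nr1d2 sits among the low SDs at 0.04 and Arntl in the upper part at 0.15.

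For other genes, the call of higher or lower in retina rests on limma's test against a minimum of 2-fold, with Benjamini-Hochberg adjustment over all 8798 genes and a threshold of 0.05. By this rule 6.63% of all genes passed, 2.80% higher and 3.83% lower. Nr1d2 and Arntl are left out of every count that follows. Of 93 other genes on 9 clock lists, 48 were measured. Of these 3 were higher in retina (6.25%) and 1 was lower (2.08%), and 44 did not pass. The 4 calls make 8.33%, near the share of all genes. Of these calls, Insig2 and the only lower gene, Fabp5, come from the list of REV-ERB targets outside the clock.

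Among the core clock genes only the nuclear receptor gene Rorb passed, 1 of 11 measured. Of 20 such genes listed, 9 had no probe with that gene as its only symbol and a value on every array, among them Per1, Per2 and Nr1d1. The median ratio of the 11 was 0.59, and 9 of them had a mean above 0, against a median of -0.005 and 4347 of 8796 means above 0 over all other genes. Of the 11, 7 had a ratio above 0 on all 5 arrays and 4 changed sign between arrays, where 73.5% of all genes kept 1 sign.

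The ROR receptors, activators of Arntl, were measured for Rorb and Rora. Rorb read 1.81, 1.71, 1.68, 1.85 and 1.57 on arrays 1 to 5. Its mean of 1.72 ± 0.11 was higher in retina (limma adjusted p = 5.29e-05), and its lowest array was array 5, where Arntl was highest. On array 5 the Rorb probe deviated from its own mean by -0.15. The probes nearest to it in probe number had a median deviation of -0.12 there. Whether probe numbers follow position on the array is not known, and the part of array position in this low value was not tested. Rora did not pass at 0.95 ± 0.11. Its 2 probes gave means of 1.51 and 0.38, so the Rora value depends on the probe.

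The partners of the Arntl protein did not pass the test. Clock read 0.46, 0.41, 0.65, 0.52 and 0.90 on arrays 1 to 5, with a mean of 0.59 ± 0.20 and with probe means of 0.26 and 0.92. The Arntl ratio was above that of Clock on every array, by 0.79 ± 0.09 for the mean of the Clock probes. Arntl was also above each Clock probe on every array, but the size of the gap depends on the probe. Npas2, which can take the place of Clock in the pair, stood at -0.47 ± 0.58 and ranged from -1.40 on array 2 to 0.03 on array 3.

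No gene of the clock repressors passed. The 6 measured were Ciart at 0.70 ± 0.11, Cry2 at 0.62 ± 0.12, Cry1 at 0.57 ± 0.58, Per3 at 0.47 ± 0.17, Bhlhe40 at 0.41 ± 0.26 and Timeless at -0.34 ± 0.38. By limma's 2-fold test 0 of the 6 also reached an unadjusted p below 0.05, which follows from means within 2-fold. Smaller differences between the tissues were not tested. The Cry and Per proteins block the CLOCK and BMAL1 pair, Ciart and Bhlhe40 encode repressors of its targets, and Timeless is a DNA replication protein with a debated part in the mammalian clock. The single D-box factor measured, Tef, a bZIP activator of clock output genes, stood at 0.64 ± 0.59 and did not pass either.

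**Figure D3:**
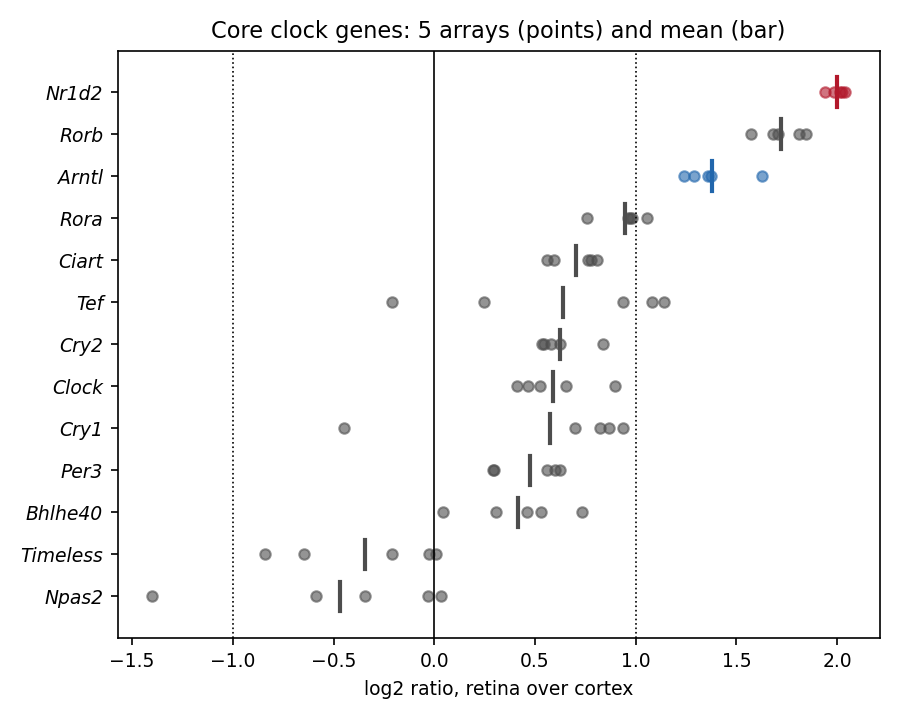
Log2 ratio of retina over cortex (horizontal axis) for the 13 measured core clock genes, ordered by mean, with 5 arrays as points, the mean as a bar and 2-fold as dotted lines. Nr1d2 (red) and Arntl (blue) lie with Rorb above 1 on every array, and Tef, Cry1 and Npas2 spread widely.

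Ordered by mean ratio, the 13 measured core clock genes ran Nr1d2, Rorb, Arntl, Rora, Ciart, Tef, Cry2, Clock, Cry1, Per3, Bhlhe40, Timeless and Npas2. Of the 12 pairs of neighbours in this order, 9 overlapped in their range over the arrays. The 3 pairs that did not overlap were Nr1d2 above Rorb, Arntl above Rora, and Bhlhe40 above Timeless. The gap of Arntl to Rora holds only for the mean of the Rora probes. The Rora probe with a mean of 1.51 read above Arntl on every array. Rorb and Arntl overlapped, although Rorb was above Arntl on 4 of 5 arrays, with a mean difference of 0.35 ± 0.25. This is an order of ratios between tissues, not of transcript levels, and each ratio carries the behaviour of its own probe.

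Arrays 1 and 2 were each the lowest array for 5 of the 13 core clock genes. The 3 most widely spread of them were lowest on array 2. How many of all genes were lowest there was not counted. Cry1 was at -0.45 on array 2, Tef at -0.21 and Npas2 at -1.40, each the lowest of its 5 values. Without array 2 their means were 0.83, 0.85 and -0.23. The other 4 values of Cry1 ran from 0.70 to 0.94, while those of Tef still ran from 0.25 to 1.14 and those of Npas2 from -0.59 to 0.03. The deviations on array 2 from the mean over arrays were -1.03 for Cry1, -0.85 for Tef and -0.93 for Npas2, and the medians over the 20 nearest probe numbers were -0.14, -0.63 and -0.39. The part of array position in these values, which probe numbers may not follow, was not tested. For Nr1d2 and Arntl the deviations on array 2 were 0.04 and -0.02, with 0.02 and 0.03 over the nearest probe numbers.

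On array 5, 6 of the 13 core clock genes including Arntl had their highest value. The median over the 13 genes was 0.90 there and between 0.56 and 0.73 on the other arrays. How many of all genes were highest on array 5 was not counted. The probes nearest in probe number to each core clock probe mostly had a positive median deviation there. It ran from 0.02 for Ciart to 0.11 for Tef, whose own deviations were 0.06 and 0.50. Only for Rorb and Timeless was it negative, at -0.12 and -0.11. The part of array position, which probe numbers may not follow, was not tested. Nr1d2 on array 5 was within 0.02 of its mean.

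Kinases, phosphatases and ubiquitin enzymes set the stability of clock proteins. Of 11 measured genes of this list 1 passed, on the higher side, and 10 did not, with means of those 10 from -0.66 to 0.33 and a list median of -0.04. The gene that passed was Usp2, a deubiquitinating enzyme known to act on clock proteins. Usp2 read 1.59, 1.69, 1.64, 1.77 and 1.92 on arrays 1 to 5, all above 2-fold. Its mean of 1.72 ± 0.13 (limma adjusted p = 1.05e-04) lay between the means of Nr1d2 and Arntl.

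The casein kinase gene Csnk1d, whose product phosphorylates PER, was at 0.06 ± 0.06. Csnk1e, of the same kinase family, was at -0.66 ± 0.04 with probe means of -1.42 and 0.11, which disagree in sign.

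Genes of corepressors and coactivators gave 0 passes among 12 measured, with a median of -0.07. By limma's 2-fold test 0 had an unadjusted p below 0.05, which follows because all 12 means lay within 2-fold. Hdac3, the histone deacetylase through which REV-ERB receptors repress, was at -0.30 ± 0.27. The farthest from 0 was the histone methyltransferase gene Kmt2a, a coactivator of CLOCK and BMAL1, at 0.65 ± 0.11.

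Heme is the ligand of the REV-ERB receptors, and 0 of 10 measured genes of its synthesis and breakdown passed limma's 2-fold test, also unadjusted. All 10 means lay within 2-fold, so none could pass. The farthest from 0 was the biliverdin reductase gene Blvra at 0.53 ± 0.09. Alas1, the rate-limiting enzyme of heme synthesis, was at -0.39 ± 0.30. Of the output and light input list only 2 of 15 genes were measured. By limma's 2-fold test 0 passed, adjusted or unadjusted, as both means lay within 2-fold. They were Noct, a clock-driven phosphatase gene, at -0.49 ± 0.56, and Th, the dopamine synthesis gene, at 0.11 ± 0.15.

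The list of REV-ERB target genes from other tissues had 2 of 11 genes measured, and the calls ran in opposite directions. Insig2, a sterol sensor that is a REV-ERB target in mouse liver, read between 1.18 and 1.24 on the 5 arrays. Its mean of 1.21 ± 0.02 was higher in retina (limma adjusted p = 8.46e-04). Without arrays 1 and 4 it missed the threshold (limma adjusted p = 0.0508). The fatty acid-binding protein gene Fabp5 was lower at -2.81 ± 0.07, with an adjusted p of 2.03e-07, and read between -2.93 and -2.77.

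**Figure D4:**
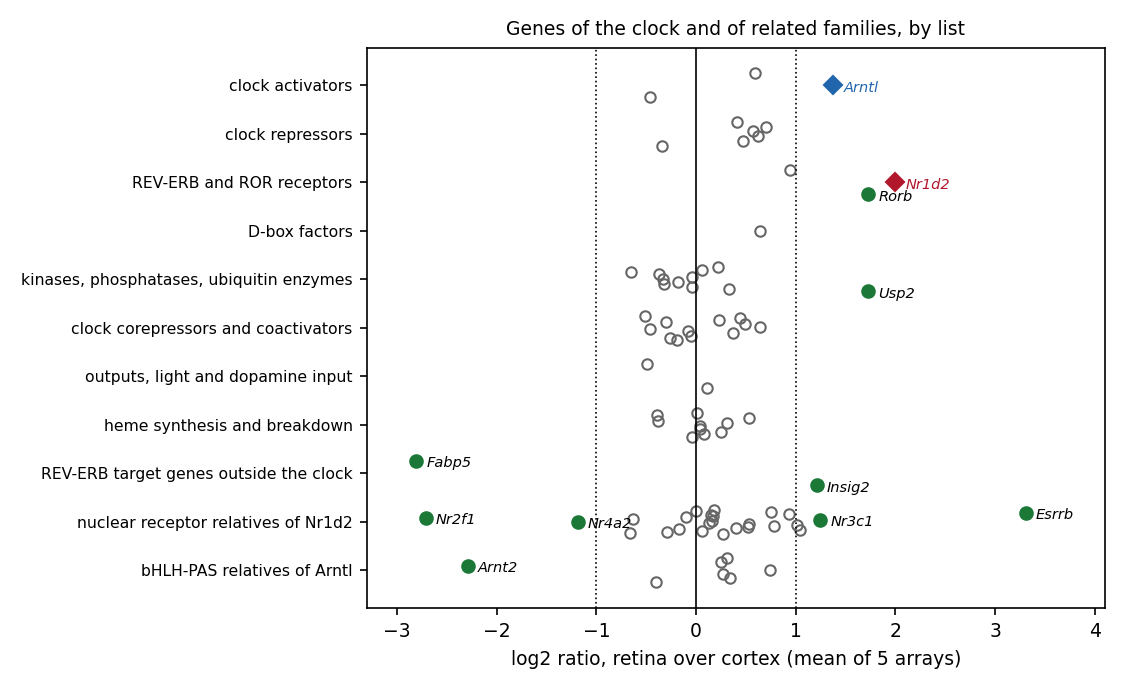
Mean log2 ratio of retina over cortex (horizontal axis, 5 arrays) for each measured gene of the clock lists and of 2 related families (rows). Filled green points passed the 2-fold test, open points did not, diamonds are Nr1d2 and Arntl, which were not tested, and dotted lines mark 2-fold. Most clock genes lie within 2-fold, and calls fall on both sides in the nuclear receptor family.

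Of 25 measured nuclear receptor genes, 2 were higher (8.00%) and 2 lower (8.00%), against 2.80% and 3.83% of all genes. The remaining 21 did not pass, and the list median was 0.18. Rorb, which passed as higher, and Rora are nuclear receptors too but were counted with the core clock genes. Esrrb, an orphan receptor of rods, stood at 3.31 ± 0.09 with an adjusted p of 1.65e-07, but at 1.78 without array 4, since a second probe with no value on that array then counts. Nr2f1, a patterning factor of the cortex, was lower at -2.71 ± 0.08 with an adjusted p of 3.89e-07. The glucocorticoid receptor gene Nr3c1 was higher at 1.24 ± 0.10 and the orphan receptor gene Nr4a2 lower at -1.19 ± 0.06, with adjusted p of 0.00925 and 0.00629 from limma. Without arrays 1 and 4 neither passed, with adjusted p of 0.0898 and 0.155.

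Of 7 measured bHLH-PAS genes, the family of Arntl with its coactivators, 1 was lower (14.3%), against 3.83% of all genes. The remaining 6 did not pass. Clock and Npas2, of the same family, were counted with the core clock genes and did not pass. Arnt2, a neuronal partner of other bHLH-PAS proteins, read -2.34, -2.21, -2.27, -2.29 and -2.35 on arrays 1 to 5, every value well below 0. Its mean was -2.29 ± 0.06 (limma adjusted p = 4.62e-07). Its paralog Arnt was at 0.25 ± 0.08 and did not pass, with probe means of 0.66 and -0.16.

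The probes most like each member were found by the root mean square difference of log2 ratios over the 5 arrays. Nearest to Nr1d2 were probes of Ctbp2 (0.040), Ric8b (0.050) and Zdhhc5 (0.066). No probe of another gene came within the SD of Nr1d2, 0.0401, but the Ctbp2 probe missed it only narrowly at 0.0402. Nearest to Arntl were probes of the glycolytic gene Pgk1 (0.056), the secretogranin gene Scg2 (0.059) and Eps8 (0.064). For Arntl, 43 other probes came within its wider SD of 0.15, so these 3 stand for a larger group. The limit differs between the members, so these counts cannot be compared. The Pgk1 probe read 1.33, 1.31, 1.40, 1.26 and 1.57 on arrays 1 to 5, highest on array 5 as Arntl was. Ctbp2 and Eps8 have a further probe each, with means of 1.67 and 0.76.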

How the data were processed

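Total RNA of 1 retina pool and 1 newborn cortex pool was compared on 5 two-colour arrays. The deposited values are 1 signed column per array, read as log10 ratios made by the authors. The sources used here do not state log base, direction, background correction or normalization; column medians lie at or next to 0. Values were multiplied by 3.32 to give log2, and an exact 0 was read as no value. Of 21446 probes, 11813 had 1 gene symbol, 559 several and 9074 none listed. A match by gene identifier to RefSeq (GRCm38.p6) named 11782 probes. A gene's value was the mean over probes with a value on all 5 arrays, for 8798 genes from 11500 probes. Genes were fitted with limma 3.58.1 in R 4.3.3 (lmFit, treat, minimum 2-fold, two-sided, Benjamini-Hochberg). The procedure was tested on simulated data. The p-values measure technical spread between arrays of the same pools. Technical precision is limited by the number of arrays. For the tissues themselves, the limit is 1 pool of each, with the same dye on every array.

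Members and lists were chosen with earlier results of these data known. Named genes are both members, all measured core clock genes, from other lists the 2 farthest from 0 that passed or the 1 farthest where none did, and the 3 most alike probes per member. Csnk1d, Csnk1e, Hdac3, Alas1, Th and Arnt, and Nr3c1 and Nr4a2, were named beyond that rule after their values were seen. Alternatives covered centring, scaling, zeros, missing values, the probe rule, prior, array weights, minimum fold, log base and arrays left out.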

Additional observations from a re-analysis of the deposited data

Results flagged for a closer look

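Of the 13 measured core clock genes, 2 had an array far from the rest, as did 705 of all 8798 genes (8.01%), where chance alone gives about 5%. Whether clock genes differ from other genes in this was not tested. Cry1, whose protein blocks the CLOCK and BMAL1 pair, stood at -0.45 on array 2, while its other 4 values ranged from 0.70 to 0.94. Its paralog Cry2 stood at 0.84 on array 5, with the rest at 0.54 to 0.62. Neither Nr1d2 nor Arntl met this criterion, and for Arntl the gap of array 5 to the next value was 0.657 of its range.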

How the results depend on the processing

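No further paired analysis was possible, because there is 1 group of arrays and each ratio already pairs both pools on 1 array. Reading the deposited values as log2 gave 0.60 for Nr1d2, 0.41 for Arntl and 0.19 for their difference. It left 7 genes past the 2-fold test among all genes, since each ratio is then smaller. On the clock lists 0 genes were then higher and 0 lower, and 0 relatives passed in either family. With a minimum of 1.5-fold, 1408 of all genes, 8 nuclear receptors and 2 bHLH-PAS genes passed. With 4-fold, 105 of all genes, 0 higher genes of the clock lists and 2 nuclear receptors passed, which follows from the minimum. The median probe, the lower one of 2, gave 2 lower genes on the clock lists in place of 1, adding Csnk1e at -1.42. Without arrays 1 and 4, an alternative chosen after seeing the data, 2 nuclear receptors passed in place of 4. With each array left out in turn, the means were 1.99 to 2.02 for Nr1d2, 1.32 to 1.41 for Arntl and 0.61 to 0.68 for the difference. Those fits gave 528 to 562 genes past the test. On the clock lists 3 genes were always higher and 1 lower, and 4 nuclear receptors and 1 bHLH-PAS gene passed. Of the 81 alternative values without those single-array fits, 65 stayed within 1 SD or 1.5 times of the reported value. Each member has 1 probe, so testing probes alone gave it no other value. Without intensities, how dim a probe was is unknown.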

Other observations

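Several genes of the related families had probes that differed by over 1 log2 unit. The 2 probes of Ppara, a fatty acid-sensing receptor, had means of 0.26 and 1.77 and gave 1.01 ± 0.03 together. Those of Rxra, the shared partner of many nuclear receptors, had 0.24 and 1.85 and gave 1.05 ± 0.04, with an adjusted p of 0.733 from limma's 2-fold test. Hif1a, a hypoxia-responsive bHLH-PAS factor, had 0.13 and 1.35 and gave 0.74 ± 0.07. These genes were named after their values were seen.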
